A study of Mus musculus with 10 samples.

Results

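The genes of the proteasome were examined in aortae of young and old mice. Members were all genes whose symbol is Psm followed by a letter from a to g and a number, with or without a further letter, which gave 49 of the 55453 gene symbols counted. They are 31 constitutive subunits of the core and its regulatory cap, 5 genes of the immunoproteasome (Psmb8, Psmb9, Psmb10, Psme1 and Psme2) and 13 others, namely further activators, an inhibitor, assembly factors, tissue-restricted subunits and an intronless copy. RNA was sequenced from 10 male C57BL/6 mice, of which 5 were 14.5 weeks old (young) and 5 were 92.5 weeks old (old), with 1 library per mouse. Aortae had been freed of periadventitial fat before total RNA was extracted with the miRNeasy kit, and libraries were prepared with the stranded TruSeq mRNA kit. Each library held between 19640401 and 22886153 counts on genes. Levels are given as normalized counts, which are counts after division by DESeq2's size factors, and log2 fold changes are old over young aortae. A gene was called when its Benjamini-Hochberg adjusted p was below 0.05 in edgeR's quasi-likelihood test, fitted on the 14614 genes that passed its low-count filter, of which 47 were members.

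The proteasome is the protease that degrades proteins tagged with ubiquitin. Its core is a barrel in which rings of alpha subunits gate the entrance and rings of beta subunits carry the catalytic sites, and its cap holds ATPases that unfold the substrate and receptors and a deubiquitinase that handle the ubiquitin chain. Interferon gamma induces Psmb8, Psmb9 and Psmb10, which take the places of the catalytic subunits Psmb5, Psmb6 and Psmb7 in newly assembled cores and favor peptides for MHC class I, together with Psme1 and Psme2, which form a ring-shaped activator on the core. Leukocytes carry Psmb8, Psmb9 and Psmb10 constitutively, and cytokines can raise these genes in cells of the vessel wall.

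The label of the tissue was checked with 6 markers of smooth muscle, the main cell type of the aortic wall. Their summed level was 885633 ± 63162 normalized counts (SD, n = 5) in the young and 839718 ± 61917 in the old aortae, with Acta2 as the most abundant gene and no marker at 0. Of the 6 markers, 1 was called, namely Smtn, which was higher in old aortae and was called in 14 of 19 alternative analyses. A few libraries stood apart. Old replicate 2 had 11.0% of its counts on mitochondrial genes, against 5.19% to 6.51% in the other old and 4.50% to 6.22% in the young aortae, and it had the lowest total count. The mitochondrial share was 5.26% ± 0.855 in the young and 6.75% ± 2.43 in the old aortae (exact two-sided permutation test, p = 0.206, where a design of 5 against 5 mice can reach no p below 0.00794). Old replicate 3 had a summed level of leukocyte markers of 22199 normalized counts, against 10869.5 to 13324 in the other old aortae, and a summed level of B cell markers of 379, against at most 86.1 in the other old and 109 in the young aortae. Young replicate 1 had 8043 normalized counts of adipocyte markers, against 2109 to 4139 in the other young aortae, and 1139 of Schwann cell markers, against 384 to 554. The 5 adipocyte markers had a median log2 fold change of -1.003, which was -0.53 without young replicate 1. By edgeR 0 of them were called, with 3 at an unadjusted p below 0.05, all lower in old aortae (Adipoq, Cidec and Plin1, named after their values were seen), where DESeq2 called 1 (Plin1) and limma-voom 0. Of 5 fibroblast markers, edgeR called Lum higher (log2 fold change 0.58, called in 19 of 19 alternatives) and Pi16 lower in old aortae (-0.58, called in 18 of 19). DESeq2 called these and Dcn, the latter higher in old aortae, and limma-voom called the same 2 genes as edgeR. Total counts (p = 0.754) and size factors (p = 0.643) were compared in the same exact permutation test.

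No proteasome gene passed the test. Of the 47 members tested, 0 were called by edgeR, whereas 1676 of all 14614 genes tested (11.5%) were called, 947 of them higher (6.48%) and 729 lower (4.99%) in old aortae. At an unadjusted p below 0.05 there were 4 members, namely Psmb10, Psmb8 and Psme1 with a higher and Psma1 with a lower value in old aortae. Among all genes tested this held for 3902 (26.7%), of which 2054 (14.1%) had the higher value in old aortae. DESeq2 called 2 members, Psmb8 and Psmb10, where it called 2325 of 17134 genes (13.6%), and limma-voom called 0. Upper-quartile scaling gave 1 call, Psmb10, beside 1692 genes (11.6%), and the absence of a low-count filter gave 1 call, again Psmb10, beside 1601 of 28011 genes (5.72%). Old and young aortae overlapped in each of the 47 members, whereas they did not overlap in 1450 of the genes tested (9.92%). The median log2 fold change was 0.00 over the members, with 24 of 47 positive, and 0.00 over all genes tested, and the median of the members lay between -0.04 and 0.03 under the other scalings run. A gene that missed the threshold is not thereby shown to be equal in both groups, so the 95% interval of each fold change is plotted by role.

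**Figure D1:**
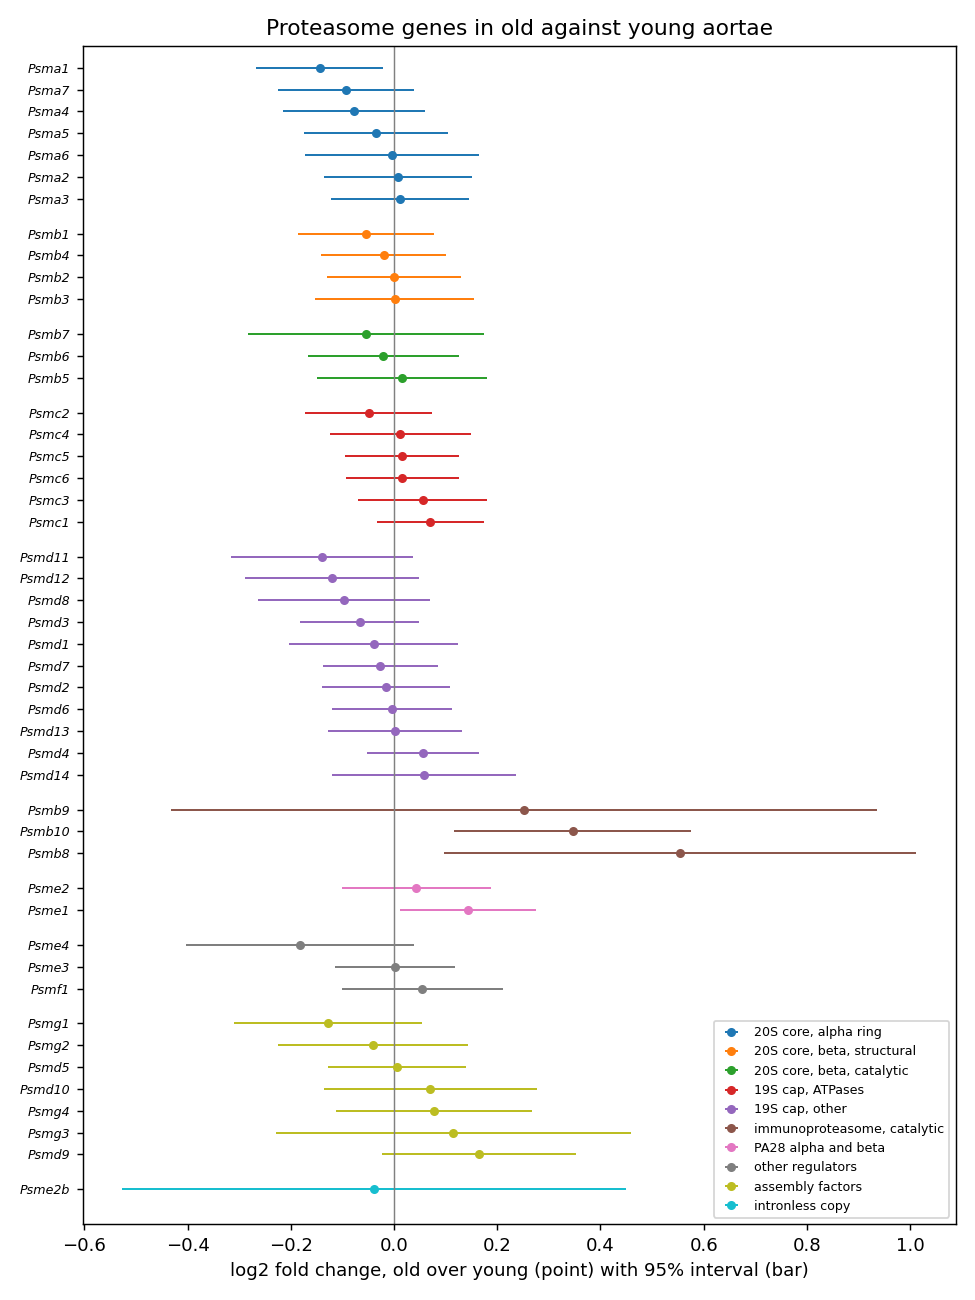
Log2 fold change of the 47 tested proteasome genes in old over young aortae (points, n = 5 mice per group) with 95% intervals (bars), grouped by the role of the gene product. The constitutive subunits lie between -0.14 and 0.07, whereas Psmb8 lies at 0.55, Psmb10 at 0.35 and Psmb9 at 0.25, of which Psmb9 turns to -0.03 without old replicate 2.

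The constitutive core and cap were measured with little spread between mice. Their 31 log2 fold changes ranged from -0.14 (Psma1) to 0.07 (Psmc1), the 95% intervals lay between -0.31 (Psmd11) and 0.24 (Psmd14), and 30 of 31 intervals held 0. The median of the 31 was -0.02 with 12 positive, against 0.00 over all genes tested. Scalings that moved all genes moved it too. It was 0.01 with upper-quartile scaling and with scaling by library size, against 0.03 over all genes in both, and -0.055 after correction for GC content and length, against -0.03 over all genes. It was 0.01 without old replicate 2 and 0.00 without young replicate 5, and it was lower without old replicate 3 (-0.05, 4 of 31 positive) and without young replicate 1 (-0.03, 6 of 31 positive). Within a group, the SD between mice on the log2 scale had a median of 0.09 over these subunits, against 0.16 over all genes tested. The subunits and all genes were not matched for abundance, and counting error widens the log2 spread at low counts. Summed over the 31 genes, the level was 57899 ± 2262 normalized counts (SD, n = 5) in the young and 56645 ± 3679 in the old aortae. Old replicate 3 had the highest sum of the 10 libraries with 62123, and old replicate 2 the lowest with 52108. As a share of all counts on genes, the constitutive subunits took 0.264% ± 0.00506 in the young and 0.265% ± 0.0183 in the old aortae.

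By role, the 7 genes of the alpha ring, which closes the barrel, had log2 fold changes from -0.14 (Psma1) to 0.01 (Psma3, which was -0.01 after correction for GC content and length, where the median over all genes was -0.03). Psma1 had 1721, 1801, 1954, 1767 and 1833 normalized counts in young replicates 1 to 5, and 1679.9, 1507, 1734, 1556 and 1689.7 in old replicates 1 to 5. All 5 old aortae were below the young median, but old replicate 3 was above young replicate 1, so the groups overlapped. Its log2 fold change was -0.14 (SE 0.0572, unadjusted p of 0.0252, Benjamini-Hochberg adjusted p = 0.124 in edgeR's test), and the adjusted p ranged from 0.0596 to 0.251 over the 19 alternatives run. The 4 beta subunits without catalytic activity ranged from -0.05 (Psmb1) to 0.00 (Psmb3, which was as low as -0.04 after correction for GC content and length). Among the 6 ATPases of the cap, which pull the substrate into the core, the values ranged from -0.05 (Psmc2) to 0.07 (Psmc1). The 11 other cap genes, which scaffold the cap or bind and cleave ubiquitin chains, ranged from -0.14 (Psmd11, a scaffold subunit) to 0.06 (Psmd14, the deubiquitinase). Of the 31 constitutive genes, 0 were called by edgeR, DESeq2 or limma-voom, and 1 had an unadjusted p below 0.05 in edgeR's test (Psma1).

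Exonic length here counts every base in an exon of any annotated transcript, which gave 3381 bases for Psmb8, 3660 for Psmb9 and 899 for Psmb5. Levels per kilobase, and the order of genes by them, depend on this choice of length. On a scale of normalized counts per kilobase of exonic length, averaged over the 10 libraries, the constitutive genes ranged from 229 (Psmd11) to 1499 (Psma6). Psmb9 (40.5 per kilobase) and Psmb8 (97.3 per kilobase) lay below each of them on this scale. Psmb10 lay beside the lowest of them, since its mean per kilobase was 201 in the young and 254 in the old aortae, where Psmd11 had 240.2 and 217. In contrast, the activator genes Psme1 (526 per kilobase) and Psme2 (675 per kilobase) lay within the range of the constitutive genes. Of the 49 members, 11 shared 10% or more of their 50-base windows with transcripts of other genes. Among them were Psmd9 (24.9%), Psmb5 (54.1%), Psme2 (28.3%, mostly with its intronless copy Psme2b) and Psmb8 (11.9%, with Gm20496, which overlaps it on the opposite strand). Counts of these genes are uncertain to the extent that reads were shared, since the strand setting and the handling of such reads are not given in the sources used here.

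The 3 catalytic immunoproteasome genes had higher mean levels in old than in young aortae, and so did both activator genes, but none of the 5 passed edgeR's test. All 5 log2 fold changes were positive under every scaling run, with a median of 0.25 against 0.00 over all genes tested, and 4 of 5 were positive without old replicate 2. After correction for GC content and length, Psme1 was at 0.09 and Psme2 at 0.0021, where the median over all genes was -0.03. The median was 0.11 without young replicate 5 and 0.14 without old replicate 2, and it was 0.38 without young replicate 1, 0.39 without young replicate 3 and 0.39 without old replicate 4. The spread between mice was larger than in the constitutive subunits, with a median SD within groups of 0.37 on the log2 scale over the 3 catalytic genes. Because aortae were sequenced in bulk, more or fewer cells of a type and more or less RNA per cell cannot be told apart in any of these values.

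Psmb8, the counterpart of Psmb5, had 340.4, 224, 354, 199 and 219 normalized counts in young replicates 1 to 5, and 319.8, 572, 389, 323 and 350.0 in old replicates 1 to 5. Young replicates 1 and 3 reached the level of most old aortae, the other young aortae were lower, and old replicate 2 was far above all others. Its log2 fold change was 0.55 (SE 0.209, 95% interval 0.10 to 1.01), higher than the young median in 5 of 5 old aortae, with an unadjusted p of 0.0219 and a Benjamini-Hochberg adjusted p of 0.115 in edgeR's test. Without old replicate 2 the log2 fold change was 0.37 (adjusted p = 0.211 in edgeR's test), and DESeq2 gave an adjusted p of 0.0495 in a range of 0.0495 to 0.268 over the 19 alternatives.

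Psmb10, which replaces Psmb7, had 383, 298, 381, 352 and 298 normalized counts in young replicates 1 to 5, and 385, 514, 432, 379 and 456 in old replicates 1 to 5. Old replicates 2, 3 and 5 stood above every young aorta, and old replicates 1 and 4 were within a few counts of young replicates 1 and 3. With a log2 fold change of 0.35 (SE 0.106, 95% interval 0.12 to 0.58, higher than the young median in 5 of 5 old aortae), it came closest to the threshold of all members, with an unadjusted p of 0.00614 and a Benjamini-Hochberg adjusted p of 0.0521 in edgeR's test. It was called in 6 of the 19 alternatives, which were DESeq2 (adjusted p = 0.0329), upper-quartile scaling (0.0467), no low-count filter (0.0328), and the omission of young replicate 1, young replicate 3 or old replicate 4. Over all alternatives the adjusted p ranged from 0.0315 to 0.134, and without old replicate 2 the log2 fold change was 0.27 (adjusted p = 0.118 in edgeR's test).

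Psmb9, the counterpart of Psmb6, had 182, 118, 188, 106 and 83.0 normalized counts in young replicates 1 to 5, and 139, 275, 169, 85.8 and 136 in old replicates 1 to 5. Both groups spanned nearly the same range apart from old replicate 2, and young replicates 1 and 3 were above 4 of the 5 old aortae. This gave a log2 fold change of 0.25 (SE 0.311, 95% interval -0.43 to 0.94, higher than the young median in 4 of 5 old aortae), with a Benjamini-Hochberg adjusted p of 0.663 in edgeR's test. It turned to -0.03 without old replicate 2.

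**Figure D2:**
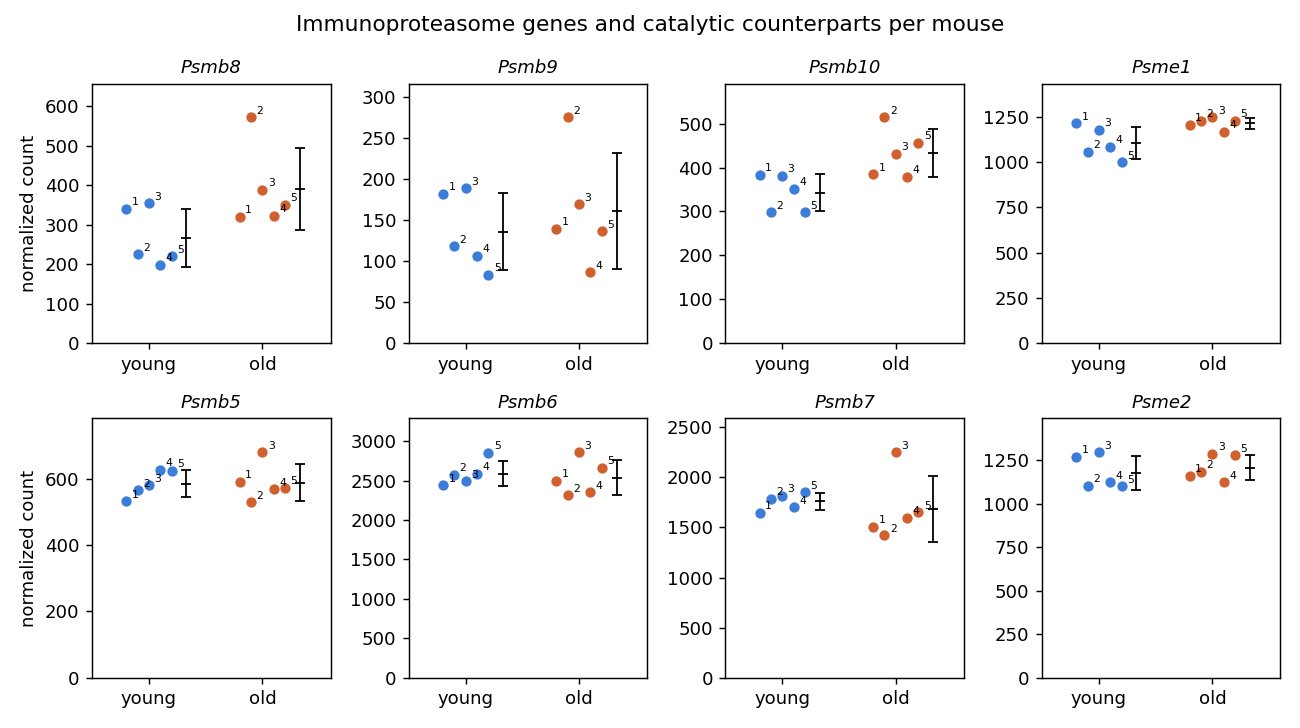
Normalized counts (y axis, from 0) of 5 immunoproteasome genes and the 3 constitutive catalytic counterparts in each young and old aorta. Each point is 1 mouse with its replicate number, and the bars to the right are mean and SD (n = 5); Psmb8 ranges from 199 to 354 in young and from 319.8 to 572 in old aortae, and old replicate 2 is highest for Psmb8, Psmb9 and Psmb10.

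The activator genes were more abundant and more even between mice. Psme1, the alpha subunit of the activator, had 1216, 1056, 1178, 1085 and 998 normalized counts in young replicates 1 to 5, and 1207, 1227, 1247, 1168 and 1229.9 in old replicates 1 to 5. The old aortae lay close together, with replicates 2, 3 and 5 above every young aorta, and young replicates 1 and 3 were within the range of the old ones. The log2 fold change was 0.14 (SE 0.0613, 95% interval 0.01 to 0.28, higher than the young median in 5 of 5 old aortae), with an unadjusted p of 0.0350 and a Benjamini-Hochberg adjusted p of 0.151 in edgeR's test. Psme2, the beta subunit, had 1268, 1101, 1295, 1123 and 1098 normalized counts in young replicates 1 to 5, and 1161, 1182, 1285, 1123 and 1278 in old replicates 1 to 5. The ranges of the groups nearly coincided, and the log2 fold change was 0.04 (SE 0.0670, 95% interval -0.10 to 0.19, Benjamini-Hochberg adjusted p = 0.739 in edgeR's test).

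The constitutive counterparts did not pass the test in either direction. Psmb5, the chymotrypsin-like subunit, had 532, 565, 579, 627 and 623 normalized counts in young replicates 1 to 5, and 591, 529, 679, 568 and 572 in old replicates 1 to 5, a log2 fold change of 0.01 (95% interval -0.15 to 0.18) that was -0.03 after correction for GC content and length, as was the median over all genes. Psmb6, the caspase-like subunit, had 2439, 2578, 2492, 2585 and 2856 in young replicates 1 to 5, and 2495, 2317, 2861, 2354 and 2664 in old replicates 1 to 5. Its log2 fold change was -0.02 (95% interval -0.17 to 0.13), and 0.01 with upper-quartile scaling and with scaling by library size, where the median over all genes was 0.03. Both genes were highest in old replicate 3 and lowest among the old aortae in replicate 2. The trypsin-like subunit Psmb7 had 1648, 1787, 1818, 1699.6 and 1852 in young replicates 1 to 5, and 1509, 1421, 2252, 1594 and 1653 in old replicates 1 to 5. Old replicate 3 was above every young aorta, whereas 3 of the other old aortae were below all of them, and the log2 fold change was -0.05 (95% interval -0.28 to 0.17). Without old replicate 3 it was -0.18 (Benjamini-Hochberg adjusted p = 0.0763 in edgeR's test, in a range of 0.0763 to 0.988 over the alternatives), and without old replicate 2 it was -0.00.

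Ratios of each inducible subunit to its counterpart within a library do not depend on the scaling between libraries. The log2 ratio of Psmb8 to Psmb5 was -1.17 ± 0.46 (SD, n = 5) in the young and -0.62 ± 0.42 in the old aortae, a difference of 0.55 that was 0.37 without old replicate 2. Old replicates 1, 3, 4 and 5 lay between -0.89 and -0.71 and old replicate 2 at 0.11, and the young aortae spread from -1.66 to -0.64. Psmb9 to Psmb6 gave -4.33 ± 0.59 in the young and -4.08 ± 0.62 in the old aortae, a difference of 0.25 that was -0.00 without old replicate 2. For Psmb10 to Psmb7 the log2 ratio was -2.37 ± 0.23 in the young and -1.95 ± 0.33 in the old aortae, a difference of 0.42 that was 0.30 without old replicate 2. The activator genes Psme1 and Psme2 had a log2 ratio of -0.09 ± 0.04 in the young and 0.01 ± 0.06 in the old aortae. Young and old aortae overlapped in all 4 ratios. Per kilobase of exonic length, the ratio of Psmb8 to Psmb5 was 11.8% in the young and 17.3% in the old aortae, that of Psmb9 to Psmb6 2.55% and 3.03%, and that of Psmb10 to Psmb7 38.8% and 51.9%. These percentages depend on the exonic length used, 3381 bases for Psmb8 against 899 for Psmb5, and do not give the proportion of transcripts. The count of Psmb5 is itself uncertain, since 54.1% of its 50-base windows were shared with other genes. Summed over the 5 immunoproteasome genes, the level was 3029 ± 337 in the young and 3406 ± 271 normalized counts in the old aortae.

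**Figure D3:**
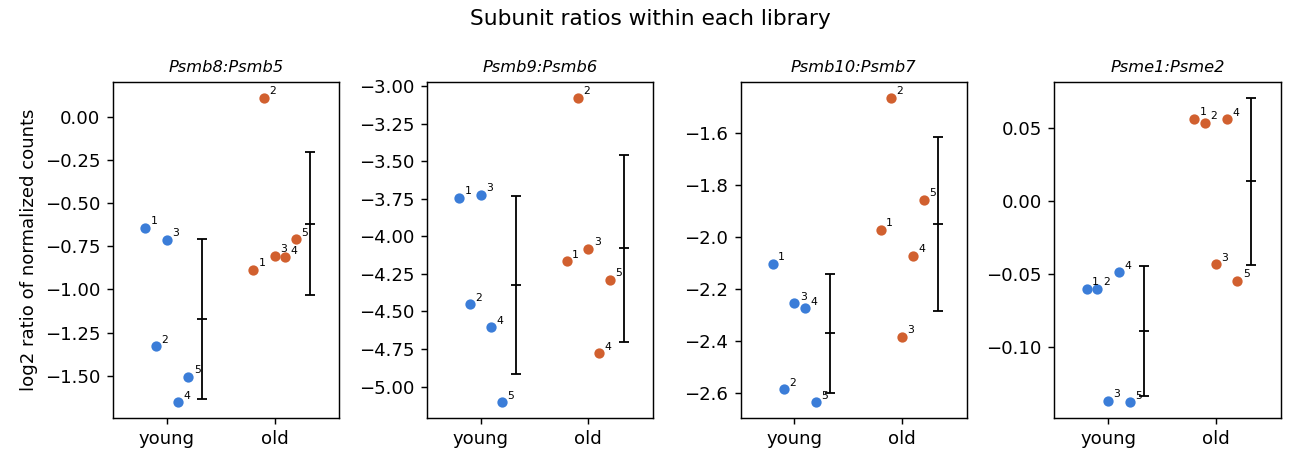
Log2 ratio of normalized counts (y axis) of each inducible subunit to its constitutive counterpart, and of Psme1 to Psme2, in each young and old aorta (points with replicate numbers, mean and SD to the right, n = 5). The groups overlap in all 4 panels, and old replicate 2 is highest in the first 3, at 0.11 for Psmb8 to Psmb5.

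The remaining members were the other regulators, the assembly factors and the genes of restricted expression. Psme4, an activator of the nucleus, had 1964, 2895, 2322, 2822 and 2933 normalized counts in young replicates 1 to 5, and 2391, 2410.4, 2241, 2231 and 2063 in old replicates 1 to 5. The old aortae were below the young median in 5 of 5 cases but within the young range, since young replicate 1 was the lowest of all 10. Its log2 fold change was -0.18 (SE 0.102, Benjamini-Hochberg adjusted p = 0.281 in edgeR's test), and -0.27 without young replicate 1, where it was called (adjusted p = 0.0295, the lowest of a range of 0.0295 to 0.477 over the alternatives). Psmf1, an inhibitor of the core, was at 0.05. Over the 7 assembly factors the values ranged from -0.13 (Psmg1, a chaperone of the alpha ring) to 0.16 (Psmd9, a chaperone of the cap), with 0 called by edgeR, DESeq2 or limma-voom and 0 at an unadjusted p below 0.05. Psme2b, the intronless copy of Psme2 on chromosome 11, had a log2 fold change of -0.04 with a 95% interval of -0.53 to 0.45, turned to 0.09 without young replicate 3, and shared 69.3% of its 50-base windows with other genes. The low-count filter left out 2 members. Psma8, a subunit of the testis, had 4 to 13 counts per library, with 40 counts in all young and 47 in all old aortae, and Psmb11, the subunit of the thymus, had 0 counts in every library.

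Psmb8 and Psmb9 lie in the MHC class II region of chromosome 17 beside the peptide transporter genes, at chr17:34197721-34201454 on the plus strand and chr17:34181987-34187764 on the minus strand (GRCm38, GENCODE M21). Tap1 lies next to Psmb9 on the side of Psmb8, at chr17:34187553-34197225 on the plus strand. The annotated ends of Tap1 and Psmb9 overlap on opposite strands, over 5.79% of the exonic length of Psmb9, so reads there could be counted for either gene if strand was not used. In RefSeq the start of Tap1 is 225 bases from that of Psmb9. Psmb10 lies apart at chr8:105935735-105938444 on the minus strand. Psme1 (chr14:55578123-55581529, plus strand) and Psme2 (chr14:55587441-55591113, minus strand) are neighbors on chromosome 14. RefSeq promoter windows were available for 41 of the 49 members, and the 250 bases before each start were searched on both strands. The motifs were the gamma-activated site of interferon-induced promoters (TTCNNNGAA), an interferon regulatory factor site (GAAANNGAA), the antioxidant response element, which Nfe2l1 also binds (TGACNNNGC), and the CCAAT box (CCAAT).

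The gamma-activated site letters were found in 1 of the 6 windows of the immunoproteasome genes (Psmb8), in 0 of the 27 windows of the constitutive subunits and in 7.02% of all 32851 windows. Letters of the interferon regulatory factor site were in 0 of 6, in 2 of 27 (Psmb3 and Psmd4) and in 7.13%. Those of the antioxidant response element were in 0 of 6, in 4 of 27 (Psmb5, Psmb6, Psmc6 and Psmd12) and in 10.2%, and those of the CCAAT box in 1 of 6 (Psmb9), in 10 of 27 and in 33.8%. A match describes the sequence and no binding was measured. Shown here, 5′ to 3′ on the strand of the gene in GRCm38.p6, are the match in Psmb8 with its flanks (chr17:34198088-34198117, plus strand, inside an annotated exon), and the stretches outside annotated exons of Psmb10, which came closest to the threshold (chr8:105938445-105938642, minus strand), and of the constitutive Psmb5 (chr14:54618023-54618245, minus strand). Capitals mark the gamma-activated site letters in Psmb8, 97 to 89 bases before the start, and the antioxidant response element letters in Psmb5, 47 to 39 bases before the start, which were the only matches in the windows of these genes. The stretch of Psmb10 holds no match to these motifs.
Psmb8: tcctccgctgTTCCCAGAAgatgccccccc
Psmb10: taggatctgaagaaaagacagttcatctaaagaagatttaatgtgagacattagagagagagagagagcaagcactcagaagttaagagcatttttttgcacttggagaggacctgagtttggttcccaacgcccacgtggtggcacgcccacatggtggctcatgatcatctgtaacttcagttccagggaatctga
Psmb5: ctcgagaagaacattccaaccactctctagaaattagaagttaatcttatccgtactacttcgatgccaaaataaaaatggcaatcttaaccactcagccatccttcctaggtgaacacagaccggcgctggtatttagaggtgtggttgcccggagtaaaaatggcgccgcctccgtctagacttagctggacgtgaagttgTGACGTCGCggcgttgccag

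The mice with the most Psmb8 and Psmb9 were the same in each group. Among the young aortae, Psmb8, Psmb9 and Tap1 were highest in replicate 3, then replicate 1, and among the old aortae they were highest in replicate 2. Young replicates 3 and 1 and old replicate 2 were also highest in their groups for the endothelial markers Pecam1, Vwf, Cdh5 and Tek. The order of the leukocyte markers in the young aortae varied by gene. Among those picked after their values were seen, Ptprc, Adgre1 and Coro1a were highest in young replicate 3, whereas Csf1r was lowest there (1255 normalized counts, against 1318 to 1586 in the other young aortae). The 5 endothelial markers summed to 25565, 17939, 31462, 19339 and 19924 normalized counts in young replicates 1 to 5, and to 11997, 20835, 8955, 14783 and 10193 in old replicates 1 to 5. Old replicate 2 was the only old aorta within the young range. Of the 5 markers, 1 was called lower in old aortae by edgeR (Tek, also called in 11 of 19 alternatives), where DESeq2 called 3 and limma-voom 2, the median log2 fold change was -0.72, Pecam1 was the most abundant and none was at 0. Leukocyte markers differed in the other direction. Of 27 markers, 18 were tested and 7 of these called higher in old aortae by edgeR, 3 of them (Cd68, Cd3g and Cd209a) in all 19 alternatives as well. DESeq2 called 13 of 26 tested and limma-voom 6 of 18 higher, and neither called any lower. Their summed levels were 10830.2, 9235, 10125, 8804 and 7929 normalized counts in young replicates 1 to 5, and 11496, 13109, 22199, 13324 and 10869.5 in old replicates 1 to 5. Every old aorta was above every young one, with Lyz2 as the most abundant gene and no marker at 0 in all libraries. In old replicate 3, which had the most leukocyte markers, Psmb8 (389) and Psmb9 (169) were second among the old aortae to replicate 2. Psmb10 was highest in old replicate 2, then in replicates 5 and 3, whereas Psme1 and Psme2 were highest in old replicate 3. The endothelial markers Pecam1, Vwf, Cdh5 and Tek were lowest in old replicate 3. The part of endothelial cells, leukocytes and the mitochondrial share of old replicate 2 in the levels of the immunoproteasome genes was not tested.

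**Figure D4:**
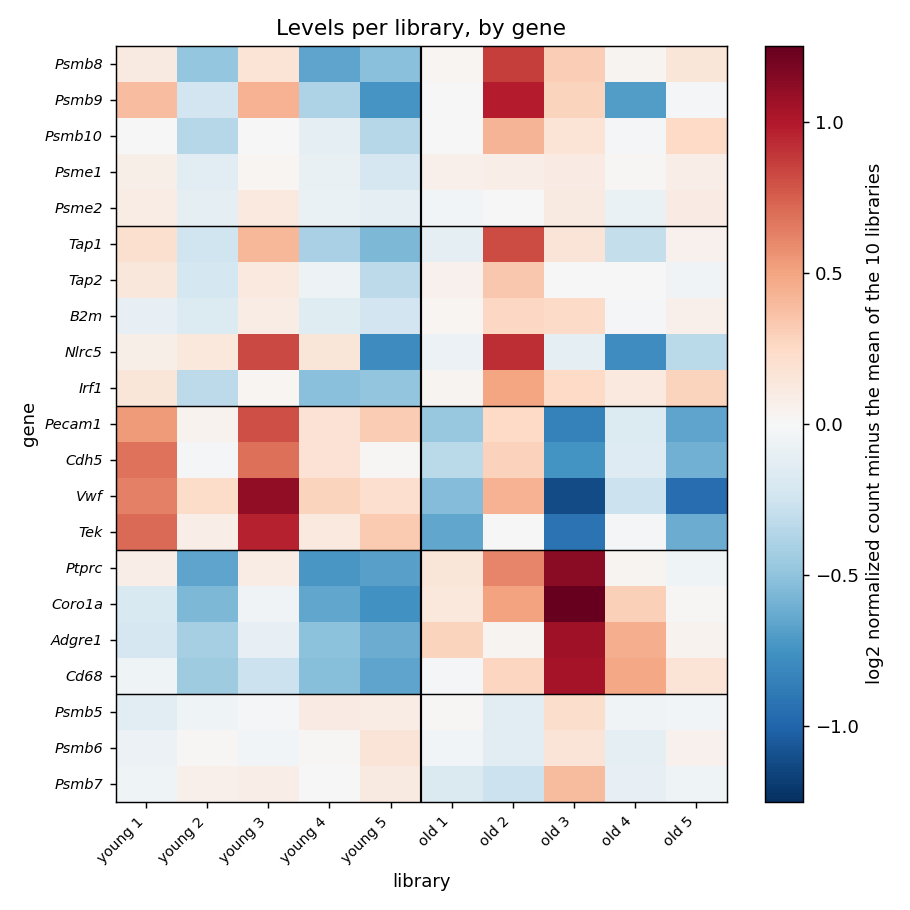
Log2 normalized count of each gene (rows) in each library (columns) minus the mean of the 10 libraries, as a color scale, with the young aortae left of the vertical line. Horizontal lines separate immunoproteasome genes, genes of class I loading and interferon response, endothelial markers, leukocyte markers and constitutive catalytic subunits; within each group, Psmb8, Psmb9 and Tap1 are highest in young replicates 3 and 1 and in old replicate 2, and the 4 leukocyte markers shown are highest in old replicate 3.

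The list of the interferon gamma pathway held 10 genes, of which 9 were tested and 0 called by edgeR, with 2 at an unadjusted p below 0.05 (Irf1 and Irf8), 2 called by DESeq2 (the same genes) and 1 by limma-voom (Irf1). The 2 genes at an unadjusted p below 0.05 in edgeR's test were 22.2% of those tested in the list, against 26.7% over all genes tested. Ifng itself had 0 counts in the young aortae and 1 count in the old ones. Irf1, a transcription factor that drives Psmb9 and Tap1, had 749, 540.4, 689, 471 and 478 normalized counts in young replicates 1 to 5, and 691, 950.2, 802, 735 and 819 in old replicates 1 to 5. Young replicate 1 was within the range of the old aortae, and the other young aortae were below all of these, with replicate 3 just under old replicate 1. The log2 fold change was 0.46 (SE 0.137, higher than the young median in 5 of 5), with a Benjamini-Hochberg adjusted p of 0.0512 in edgeR's test and of 0.0118 to 0.123 over the alternatives, of which 5 of 19 called it. Nlrc5, the transactivator of the class I genes, was at -0.12 (95% interval -0.88 to 0.63), turned to 0.10 without young replicate 3, and was again highest in young replicate 3 and old replicate 2.

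Of 11 genes of class I peptide loading, 0 were called by edgeR and 2 had an unadjusted p below 0.05 (B2m with a higher and Tapbp with a lower value in old aortae), which DESeq2 called and limma-voom did not. The 2 genes at an unadjusted p below 0.05 in edgeR's test were 18.2% of the list, against 26.7% over all genes tested. The median log2 fold change of the list was -0.02. B2m, the light chain of class I, was at 0.24 (SE 0.0805, higher than the young median in 5 of 5, Benjamini-Hochberg adjusted p = 0.0747 in edgeR's test, 0.0203 to 0.170 over the alternatives). The transporter gene Tap1 had 355, 261, 413, 233 and 209 normalized counts in young replicates 1 to 5, and 284, 545, 345, 251 and 321 in old replicates 1 to 5. The order of the mice was close to that of its neighbor Psmb9. Tap1 had a log2 fold change of 0.25 (Benjamini-Hochberg adjusted p = 0.557 in edgeR's test). This was 0.03 without old replicate 2 and 0.41 without young replicate 3. Tap2 was at 0.14 (adjusted p = 0.406 in the same test), and at 0.07 without old replicate 2.

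Genes of proteasome transcription, accessory factors and ubiquitin were also examined. Through Nfe2l1, cells raise the transcription of constitutive subunits when proteasome activity is short. The transcription list held 9 genes, among them Nfe2l2 and Keap1 of the antioxidant response, and 0 were called by edgeR. In that test 2 had an unadjusted p below 0.05, namely Nfe2l1, lower in old aortae, and Maff, higher with a log2 fold change of 0.36. DESeq2 called 1 (Nfe2l1) and limma-voom 0. Nfe2l1 had 9481, 9926, 10512, 10049 and 10359 normalized counts in young replicates 1 to 5, and 9011, 9151, 9199.8, 9287 and 9347 in old replicates 1 to 5. Every old aorta was below every young one, by a small margin. The log2 fold change was -0.12 (SE 0.0518, 95% interval -0.23 to -0.01) with a Benjamini-Hochberg adjusted p of 0.150 in edgeR's test and 0.0195 in DESeq2, in a range of 0.0195 to 0.344 over the alternatives. Among 11 accessory genes, 10 were analyzed and 0 called by edgeR, with 1 at an unadjusted p below 0.05 (Zfand5, at -0.22, the 1 gene that DESeq2 called, while limma-voom called 0), and Pomp, the maturation factor of the core, was at 0.05. Among 7 genes of shuttling ubiquitin receptors, 6 were tested and 0 called by edgeR, with 1 at an unadjusted p below 0.05 (Ubqln1, at -0.25) and 0 called by DESeq2 or limma-voom. The share at an unadjusted p below 0.05 in edgeR's test was 22.2% in the transcription list, 10.0% in the accessory genes and 16.7% in the receptors. Over all genes tested it was 26.7%. Ubb, a gene that encodes a chain of ubiquitin units, was at -0.14 (95% interval -0.29 to 0.02, Benjamini-Hochberg adjusted p = 0.239 in edgeR's test).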

How the data were processed

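The deposited values are counts per gene symbol, which the authors made by trimming reads with fastp 0.20.0, aligning them with STAR 2.7.0f to GRCm38 with GENCODE annotation and counting with featureCounts of Subread 1.6.4. The strand setting and the handling of reads with several alignments are not given in the sources used here. Columns were assigned to mice by their titles. Old and young aortae (5 libraries each) were compared with edgeR 4.0.16 under R 4.3.3 by the quasi-likelihood F test (robust, TMM scaling, filterByExpr at its defaults, no covariate), with Benjamini-Hochberg adjustment over the 14614 genes tested. SE was the absolute log2 fold change over the square root of F, and 95% intervals were derived from it. Total counts and the spread between mice set the precision, and the chi-square of counts per degree of freedom was 8.06 to 58.8 in the 20 pairs of libraries within a group, where counting error alone gives 1. Levels used the size factors of DESeq2 1.42.0. Exonic length, overlap and shared 50-base windows came from GENCODE M21, and promoters from RefSeq. Of the listed genes, Paaf1 was not analysed here. Members and lists were chosen with earlier results of these data known. Full values are given for the immunoproteasome genes, their counterparts and related genes that were called, the lowest and highest member of each role, and Nfe2l1, Irf1, Nlrc5, Tap1, Tap2, B2m, Pomp and Ubb, while some genes of this rule are not reported here; further genes with an unadjusted p below 0.05, and full values of Psma1 and Psme4, were chosen after their values were seen. Alternatives were DESeq2, limma-voom (limma 3.58.1), other scalings (size factors of DESeq2, upper quartile, library size, offsets for GC content and length), no filter, a mean count of at least 10, a threshold of 0.01, a replicate block and the omission of each mouse. The tests across genes were first tried on simulated counts.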

Additional observations from a re-analysis of the deposited data

Results flagged for a closer look

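In 6 of 110 groups of 5 aortae, 1 sample lay far from the other 4. Chance flags about 1 in 20 groups. In old replicate 2, Psmb8 had 572 normalized counts, where the other old aortae had 319.8 to 389, and the log2 ratio of Psmb8 to Psmb5 was 0.11, where the others had -0.89 to -0.71. The same library had 1127 normalized counts of Psmb2 (others 1266 to 1321), 2049.7 of Psmd7 (others 2179 to 2219) and 11.0% of its counts on mitochondrial genes (others 5.19% to 6.51%). In old replicate 3, Psmb7 had 2252 normalized counts, where the others had 1421 to 1653.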

How the results depend on the processing

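Over the named genes, 673 recomputed fold changes kept their direction and side of the threshold, 17 newly passed it, 40 no longer passed it and 30 changed sign. At an adjusted p below 0.01, 658 genes were called in place of 1676, and 0 members. DESeq2 called 2 members higher, both of the immunoproteasome, and upper-quartile scaling and the absence of a filter 1 each; the cause was not tested. With 1 mouse left out, 0 to 1 members were called higher (0 to 1 of the immunoproteasome), 0 to 1 lower, and 1132 to 2367 genes in all. After correction for GC content and length, the log2 fold change of Psmb5 was -0.0281, of Psma3 -0.0103 and of Psmb3 -0.0415. Psmb6 was at 0.00807 with upper-quartile scaling and 0.00581 with library size. The median over all genes moved as well, from 0.00339 to -0.0266, 0.0307 and 0.0285 in these settings. Psmb3 was at -0.00644 in DESeq2, -0.00150 in limma-voom, -0.00663 with the size factors of DESeq2, -0.00279 without a filter and -0.00210 with the replicate block. With 1 mouse left out, log2 fold changes ranged from -0.0305 to 0.41 (Psmb9), -0.0446 to 0.0457 (Psmb5), -0.0692 to 0.0117 (Psmb6), -0.183 to -0.00386 (Psmb7), -0.0207 to 0.0460 (Psma3), -0.0387 to 0.0403 (Psmb3), -0.13 to 0.0916 (Psme2b) and -0.47 to 0.10 (Nlrc5). The difference in mean total count then ranged from -522904 to 294759 and that in size factor from -0.00125 to 0.0376. With the replicate number as a block, 1261 genes were called. The numbers do not pair the samples, since the correlations of same-numbered libraries ranged from -0.30 to 0.13, and not every sample correlated best with its own number. Counting error is part of the spread between mice, and on the log2 scale it is larger for members with fewer counts. Psma8 did not pass the low-count filter of the main edgeR fit. It was tested by DESeq2 and without a filter, and was called in neither. Psmb11 had 0 counts in every library.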
